A study of Danio rerio with 13 samples.

Results

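A set of 10 genes of neutrophils, macrophages and inflammation were followed in muscle of zebrafish with and without telomerase. They were mpx, lyz, npsn, mmp9, mmp13a, il1b, mpeg1.1, csf1ra, marco and ptprc. An identifier of the counts table was taken as one of them when its zebrafish gene symbol was the same, with case ignored. Of the 10 genes, 8 were matched to 1 identifier each, out of 32105 identifiers in the table, and the other 2, mpx and mpeg1.1, matched none. A match by symbol does not show that these 2 genes were absent from the table, since they may stand under other names. All 8 passed the filter on low counts, which kept 19407 identifiers. One of the 8 carries capitals in the symbol table and is written MMP9.

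Gene expression was measured by RNA sequencing of muscle from 13 male zebrafish of the AB strain, all 3 months old. The 3 groups were formed by the labelled genotype. They were tert-/- fish, with both copies of the telomerase gene mutant (n = 3), tert+/- fish, with 1 mutant copy (n = 5), and AB wild type fish (n = 5). The mutation is inherited through the germline, so that it is present in all tissues, and it is a nonsense change. The comparisons ask whether loss of 1 or both copies of tert alters these genes in muscle, since the study used the mutants as a graded model of telomeric ageing. The libraries are numbered within each genotype as names only. The sources used here do not state whether the fish shared parents or were processed together. The p-values set differences against the spread between these samples and take the samples as independent, which could not be checked.

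Neutrophils and macrophages are the phagocytes of the innate immune system. Neutrophils carry enzymes ready made in granules and enter tissue from the blood, whereas macrophages reside in muscle and clear debris after injury. Muscle tissue holds few of either cell, and bulk RNA cannot tell fewer cells apart from less RNA per cell. Among the genes followed here, lyz encodes the granule enzyme lysozyme and npsn the neutrophil protease nephrosin. MMP9 and mmp13a encode secreted proteases that cut the collagen of the matrix, and il1b encodes the inflammatory cytokine interleukin-1 beta. The receptor for the macrophage growth factor CSF1 is encoded by csf1ra, and marco encodes a scavenger receptor of macrophages. In bulk muscle, transcripts of these genes, csf1ra among them, need not come only from the cells named for them. ptprc encodes CD45, a phosphatase on the surface of all leukocytes.

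Total counts lay between 10.6 M and 47.5 M (M, 1e6) per library, a 4.49-fold range. In 3 libraries, tert-/- 1, tert+/- 1 and wild type 5, the testis transcripts piwil1, ddx4, sycp3, insl3 and amh summed to 585, 288 and 307 CPM, against at most 17 CPM in the other 10. CPM are read counts scaled per M of library counts, here with the scaling factors given below. The 15 genes of a wider testis list summed to 485 to 1120 CPM in those 3 libraries and to 6.61 to 53.1 CPM in the other 10, with no gene at 0 in all libraries. Muscle transcripts were abundant in all libraries, but 19 fast muscle genes summed to 131902 to 369182 CPM in the same 3 libraries and to 436237 to 598200 CPM in the other 10. The scaling factors given next lower CPM in the 3 libraries and raise it in the others, so these sums are not shares of the reads. The scaling factors that edgeR derives by TMM (trimmed mean of M-values), which put library totals on a common scale, were 2.30, 2.03 and 1.07 in those libraries and 0.771 to 0.922 elsewhere. Levels and sums in CPM, above and below, carry these factors unless library totals alone are named. With library totals alone, the median log2 fold change over all genes tested moved from -0.03 to 0.49 for tert-/- against wild type and from 0.00 to 0.29 for tert+/- against wild type. The part of testis transcripts in any difference below was not tested, and values without the 3 libraries are given where they turn a direction.

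The mutated gene itself was read in every library. TERT had 2.02, 3.53 and 6.0 CPM in tert-/- libraries 1 to 3, against 7.82, 5.68, 6.66, 6.70 and 6.35 CPM in tert+/- libraries 1 to 5 and 9.73, 4.90, 5.38, 5.86 and 6.89 CPM in wild type libraries 1 to 5. With these factors, libraries tert-/- 1 and 2 were below all others, while tert-/- 3 lay within the range of the other genotypes. With library totals alone, tert-/- libraries were at 3.25 to 4.63 CPM, tert+/- at 5.24 to 15.8 CPM and wild type at 4.30 to 7.80 CPM. There tert-/- 1 and tert-/- 3, at 4.63 and 4.62 CPM, were above wild type 2, at 4.30 CPM, while all tert-/- libraries were below all tert+/- libraries. The log2 fold change was -0.77 (SE 0.34) for tert-/- against wild type and 0.02 (SE 0.28) for tert+/- against wild type, with adjusted p = 0.992 and 1 by edgeR's quasi-likelihood test. For tert-/- against tert+/- it was -0.79 (SE 0.34, edgeR adjusted p = 0.9998). A nonsense mutation leaves the gene in place to be transcribed, so these levels do not settle the labels.

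As RPKM (CPM divided by transcript length in kilobases, calculated with each library's own total), lyz had the highest mean level of the 8 genes, at 14.0 ± 11.5 (SD, n = 13). The macrophage receptor marco followed at 4.2 ± 1.45, npsn at 3.72 ± 3.61 and ptprc at 2.22 ± 0.666. Lower levels were those of MMP9 at 1.13 ± 1.71, il1b at 0.801 ± 1.32, csf1ra at 0.467 ± 0.179 and mmp13a at 0.0819 ± 0.10. Neighbours in this order often crossed. The lyz level was above that of marco in 11 of 13 libraries, marco was above npsn in 10, npsn above ptprc in 8, ptprc above MMP9 in 11 and MMP9 above il1b in 10. The level of il1b was above that of csf1ra in only 5 of 13 libraries, although its mean was higher, and csf1ra was above mmp13a in 13 of 13. The mean levels of il1b and MMP9 rest on tert-/- 1 and tert+/- 1, where both genes were highest.

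**Figure D1:**
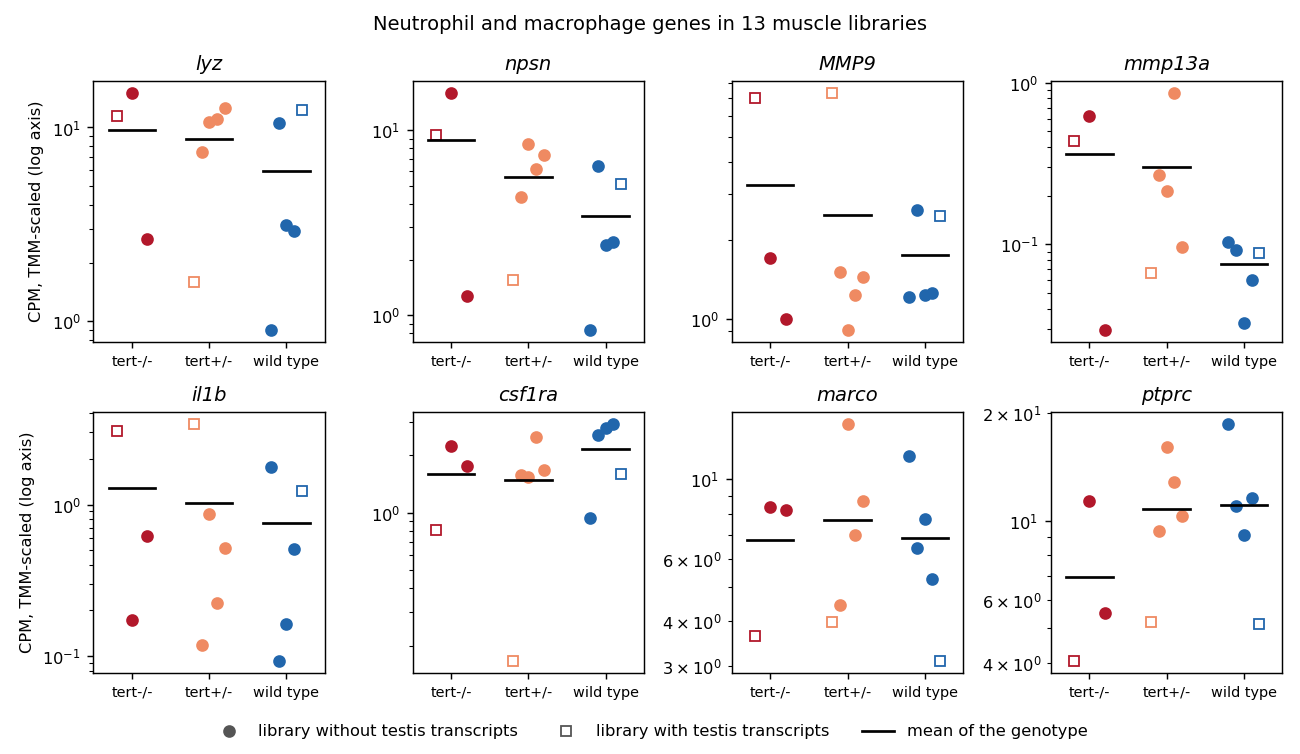
CPM with TMM factors (log axis) of the 8 genes in each library, by genotype, with the mean of each genotype as a bar. Open squares are the 3 libraries with testis transcripts, and no gene separates the genotypes: in lyz, for example, tert-/- libraries lie at 2.65 to 15.1 CPM and wild type libraries at 0.897 to 12.3 CPM.

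No gene of the 8 was called between genotypes. At a Benjamini-Hochberg adjusted p under 0.05, edgeR called 0 of 8 in each of the 3 comparisons, where the share called over all 19407 genes was 0% too. A positive log2 fold change was seen in 5 of 8 genes for tert-/- against wild type (47.7% of all genes tested), 6 of 8 for tert+/- against wild type (50.2% of all) and 6 of 8 for tert-/- against tert+/- (50.3% of all). Leaving out the 3 libraries with testis transcripts gave 4 of 8 (47.2% of all), 4 of 8 (50.4%) and 3 of 8 (48.9%). Here and below, fits without those libraries hold only tert-/- 2 and 3, tert+/- 2 to 5 and wild type 1 to 4. Genes with an unadjusted edgeR p under 0.05 numbered 496 for tert-/- against wild type (2.56%), 557 for tert+/- against wild type (2.87%) and 284 for tert-/- against tert+/- (1.46%). DESeq2 called 1, 0 and 1 genes and limma-voom 0 in each. Without the 3 libraries with testis transcripts, edgeR again called 0, and DESeq2 called 2 genes for tert-/- against wild type, 38 for tert+/- against wild type and 1 for tert-/- against tert+/-, none of them among the 8. At an unadjusted p under 0.05, 1 of 8 genes was higher in tert-/- than in wild type (1.2% of all genes tested were) and 1 of 8 was higher in tert+/- than in wild type (1.16% of all). Both times it was mmp13a, which the filter on low counts kept through mutant libraries where it was high. At the same threshold, 0 of 8 were lower (1.36% and 1.71% of all). Between tert-/- and tert+/- it was 0 of 8 in either direction, against 0.654% of all genes higher and 0.809% lower. The CPM ranges overlapped between genotypes for all 8 genes in all 3 comparisons. Over all genes tested, ranges without overlap made up 1.39% for tert-/- against wild type, 0.593% for tert+/- against wild type and 1.21% for tert-/- against tert+/-. The comparisons share their libraries in pairs, so their values are given side by side.

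The neutrophil granule genes lyz and npsn had higher means in both mutant genotypes than in wild type, while the ranges of the genotypes overlapped. Lysozyme transcripts (lyz, ENSDARG00000057789) had 11.5, 15.1 and 2.65 CPM in tert-/- libraries 1 to 3, against 1.59, 7.50, 10.6, 11 and 12.7 CPM in tert+/- libraries 1 to 5 and 0.897, 10.5, 3.13, 2.93 and 12.3 CPM in wild type libraries 1 to 5. Each genotype thus held both high and low fish, and the lowest was wild type 1. Mean CPM was 9.74 ± 6.40 for tert-/- fish (SD, n = 3), 8.69 ± 4.39 for tert+/- fish (SD, n = 5) and 5.95 ± 5.09 for wild type fish (SD, n = 5). Fitted log2 fold changes were 0.72 (95% interval -1.0 to 2.44) for tert-/- against wild type, 0.56 (-0.97 to 2.08) for tert+/- against wild type and 0.17 (-1.57 to 1.90) for tert-/- against tert+/-. Leaving out 1 library moved the first of these to between 0.24 (without tert-/- 2) and 1.26 (without wild type 5), and the second to between 0.28 (without wild type 1) and 0.99. The last value had the opposite sign, -0.22, without the 3 libraries with testis transcripts, and the second was 1.26 there.

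Nephrosin transcripts followed the same libraries. npsn (ENSDARG00000010423) had 9.41, 16.0 and 1.26 CPM in tert-/- libraries 1 to 3, against 1.56, 4.35, 8.47, 6.21 and 7.34 CPM in tert+/- libraries 1 to 5 and 0.828, 6.41, 2.41, 2.48 and 5.13 CPM in wild type libraries 1 to 5. As for lyz, wild type 1 was the lowest and tert-/- 2 the highest library, while with library totals alone tert-/- 1 was the highest for both, at 26.4 CPM of lyz and 21.6 CPM of npsn. Mean CPM of npsn was 8.87 ± 7.36 for tert-/- fish (SD, n = 3), 5.58 ± 2.72 for tert+/- fish (SD, n = 5) and 3.45 ± 2.26 for wild type fish (SD, n = 5). The tert-/- and wild type means differed by more than the SD of wild type fish, but by less than that of tert-/- fish. For npsn the fitted log2 fold change was 1.37 for tert-/- against wild type (SE 0.74, 95% interval -0.23 to 2.96, edgeR adjusted p = 0.992). It was 0.70 (SE 0.66) for tert+/- against wild type and 0.67 (SE 0.74) for tert-/- against tert+/-. Leaving out tert-/- 2 brought the first of these to 0.61, the lowest of all leave-one-out values, and leaving out wild type 1 brought the second to 0.45.

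Together lyz and npsn had a summed CPM of 18.6 ± 13.7 for tert-/- fish (SD, n = 3), 14.3 ± 6.98 for tert+/- fish (SD, n = 5) and 9.40 ± 7.25 for wild type fish (SD, n = 5). The means of tert-/- and wild type fish differed by less than the SD of tert-/- fish, but by more than that of wild type fish. Over the 10 libraries without testis transcripts, lyz spanned a 16.8-fold range and npsn a 19.3-fold range, while the leukocyte gene ptprc spanned 3.40-fold. The 2 granule genes moved together, so that their ratio was steadier than either level. Counts of npsn per 100 counts of lyz, a ratio that no scaling can alter, were 47.8 to 106 in tert-/- libraries, 56.0 to 97.9 in tert+/- and 41.7 to 92.3 in wild type. Counts of lyz per 100 counts of ptprc ran from 48.1 to 285 in tert-/- libraries, 30.6 to 123 in tert+/- and 4.80 to 240 in wild type, a 59.4-fold range over all libraries.

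**Figure D2:**
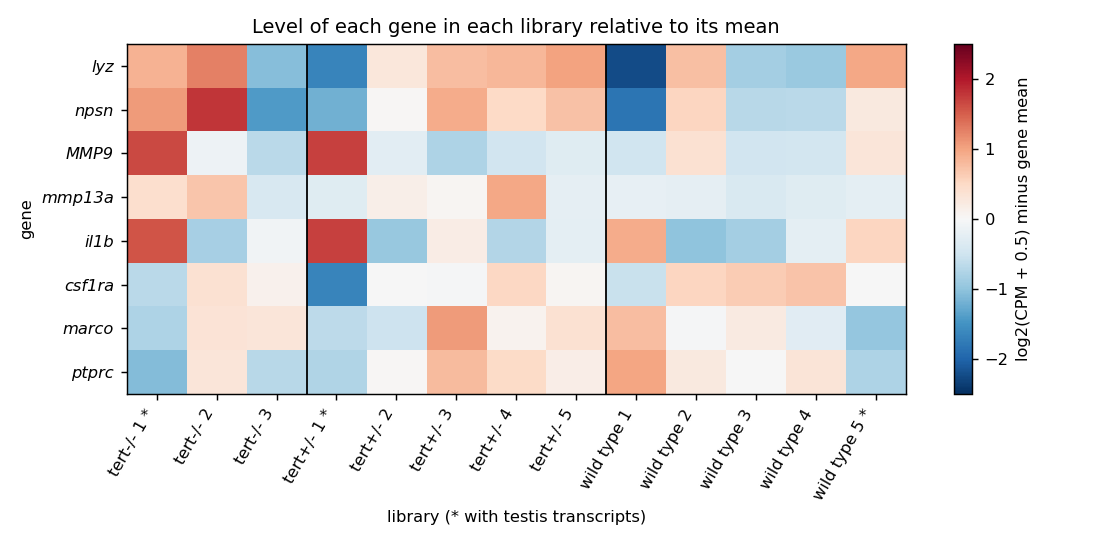
Level of each gene in each library as log2(CPM + 0.5) minus the mean of the gene, with genotypes set apart by black lines and the 3 libraries with testis transcripts marked by an asterisk. The rows of lyz and npsn rise and fall in the same libraries, with wild type 1 lowest in both, whereas MMP9 and il1b stand out in tert-/- 1 and tert+/- 1.

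Of the matrix proteases, MMP9 (ENSDARG00000042816) had 7.04, 1.72 and 0.999 CPM in tert-/- libraries 1 to 3, against 7.35, 1.52, 0.903, 1.24 and 1.44 CPM in tert+/- libraries 1 to 5 and 1.21, 2.62, 1.24, 1.26 and 2.47 CPM in wild type libraries 1 to 5. The 2 high values belonged to libraries with testis transcripts, and the other 11 libraries lay within 0.903 to 2.62 CPM. With library totals alone, the 3 libraries with testis transcripts were above all others, at 2.65 to 16.2 CPM against 0.759 to 2.30 CPM. For MMP9 the fitted log2 fold change was 0.90 (SE 0.74) for tert-/- against wild type, 0.51 (SE 0.66) for tert+/- against wild type and 0.39 (SE 0.74) for tert-/- against tert+/-, with adjusted p of 0.992, 1 and 1. Without tert-/- 1 the first value was -0.33, and without tert+/- 1 the second was -0.47. Without the 3 libraries with testis transcripts they were -0.18 and -0.30.

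The collagenase gene mmp13a (ENSDARG00000012395) was the only one of the 8 with an unadjusted p under 0.05, and it rests on few reads. With library totals alone it was highest in tert-/- 1 (0.995 CPM), tert+/- 4 (0.737 CPM) and tert-/- 2 (0.572 CPM). Every wild type library was at 0.0945 CPM or less. The gene passed the filter on low counts through those mutant libraries, so its unadjusted p-values are a description only. It had 29, 25 and 1 counts in tert-/- libraries 1 to 3, against 2, 9, 5, 35 and 3 counts in tert+/- libraries 1 to 5 and 3, 3, 1, 2 and 1 counts in wild type libraries 1 to 5. Scaled to the libraries, these were 0.434, 0.622 and 0.0294 CPM in tert-/-, 0.0662, 0.268, 0.215, 0.865 and 0.0962 CPM in tert+/- and 0.104, 0.0924, 0.0326, 0.0598 and 0.0884 CPM in wild type. Every wild type library had at most 3 counts, while tert-/- 3, tert+/- 1 and tert+/- 5 had no more than 3 either. The log2 fold change was 2.24 for tert-/- against wild type (SE 0.92, 95% interval 0.24 to 4.24, edgeR adjusted p = 0.992). For tert+/- against wild type it was 1.99 (SE 0.85, 95% interval 0.15 to 3.84, edgeR adjusted p = 1). Between tert-/- and tert+/- it was 0.25 (SE 0.87). For tert-/- against wild type, the unadjusted p was 0.05 or more under 8 of 20 other settings, namely without the 3 libraries with testis transcripts (with edgeR, with library totals alone and with DESeq2), with voom, and without tert-/- 1, tert-/- 2, wild type 3 or wild type 4. Leaving out tert-/- 2 gave the lowest fold change, 1.61. For tert+/- against wild type it was 0.05 or more under 3 of 20, without wild type 2, 3 or 4. The 20 settings do not include a fit without tert+/- 4, the library with 35 counts, since mmp13a was not tested there. The tallies therefore do not show how far the difference rests on that library. For a count of 3, the exact Poisson 95% interval is 0.619 to 8.77 counts, and for the 25 counts of tert-/- 2 it is 16.2 to 36.9. These intervals cover counting error only.

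Interleukin-1 beta was the most variable of the 8, with a fitted coefficient of variation between fish of 106%, against a median of 46.5% over all genes tested. il1b (ENSDARG00000098700) had 3.05, 0.174 and 0.617 CPM in tert-/- libraries 1 to 3, against 3.41, 0.119, 0.860, 0.223 and 0.513 CPM in tert+/- libraries 1 to 5 and 1.76, 0.0924, 0.163, 0.508 and 1.24 CPM in wild type libraries 1 to 5. As with MMP9, tert-/- 1 and tert+/- 1 were highest, and the ranges of the genotypes overlapped. In the fit, il1b had a log2 fold change of 0.80 (SE 1.15) for tert-/- against wild type and 0.47 (SE 1.03) for tert+/- against wild type, with adjusted p of 0.992 and 1. These turned to -0.84 without tert-/- 1 and to -0.82 without tert+/- 1, and were -0.60 and -0.52 without the 3 libraries with testis transcripts. Between tert-/- and tert+/- the value was 0.33 (SE 1.15), and it was -0.07 without the 3 libraries.

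**Figure D3:**
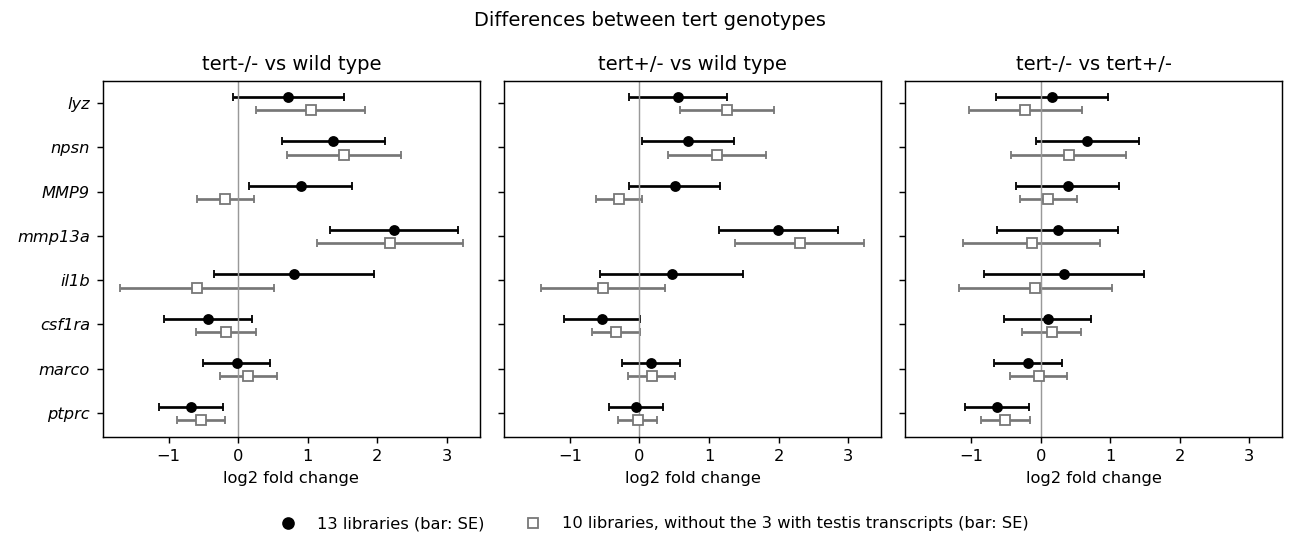
Log2 fold change of each gene between genotypes with its standard error, for all 13 libraries (filled) and for the 10 libraries without testis transcripts (open). MMP9 and il1b change sign against wild type between the 2 fits, while mmp13a is at 2.24 and 2.18 for tert-/- against wild type, with an unadjusted p under 0.05 in the first fit alone.

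Of the macrophage genes, csf1ra was lowest in tert+/- 1 and marco in wild type 5, both libraries with testis transcripts. The CSF1 receptor gene csf1ra (ENSDARG00000102986) had 0.808, 2.24 and 1.76 CPM in tert-/- libraries 1 to 3, against 0.166, 1.58, 1.55, 2.5 and 1.67 CPM in tert+/- libraries 1 to 5 and 0.932, 2.56, 2.77, 2.93 and 1.59 CPM in wild type libraries 1 to 5. The 3 highest libraries were wild type 2, 3 and 4, while wild type 1 was above tert-/- 1 and tert+/- 1 alone. For csf1ra the fitted log2 fold change was -0.43 (95% interval -1.81 to 0.94) for tert-/- against wild type, -0.53 (-1.72 to 0.65) for tert+/- against wild type and 0.10 (-1.26 to 1.46) for tert-/- against tert+/-. The first was -0.089 without tert-/- 1 and -0.77 without tert-/- 2, and the second -0.25 without tert+/- 1 and -0.80 without tert+/- 4. Over all 13 libraries csf1ra spanned a 17.7-fold range, and over the 10 without testis transcripts 3.15-fold. The low end of the wider range is tert+/- 1, with 5 counts. With library totals alone tert+/- 1 was at 0.335 CPM, while tert-/- 1, at 1.85 CPM, lay within the 0.747 to 2.44 CPM of the 10.

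The scavenger receptor gene marco (ENSDARG00000059294) had 3.65, 8.39 and 8.23 CPM in tert-/- libraries 1 to 3, against 3.97, 4.43, 14.3, 7.0 and 8.69 CPM in tert+/- libraries 1 to 5 and 11.6, 6.44, 7.76, 5.26 and 3.09 CPM in wild type libraries 1 to 5. Its 3 lowest libraries were those with testis transcripts, and the rest lay within 4.43 to 14.3 CPM. With library totals alone tert-/- 1 and tert+/- 1 had 8.37 and 8.04 CPM, within the range of the rest. Mean CPM was 6.76 ± 2.69 for tert-/- fish (SD, n = 3), 7.68 ± 4.18 for tert+/- fish (SD, n = 5) and 6.83 ± 3.17 for wild type fish (SD, n = 5). Fitted log2 fold changes were -0.02 (95% interval -1.07 to 1.03) for tert-/- against wild type and 0.16 (-0.74 to 1.07) for tert+/- against wild type. The sign of the first value turned under 10 of 23 other settings.

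The leukocyte gene ptprc (ENSDARG00000071437) had 4.04, 11.3 and 5.50 CPM in tert-/- libraries 1 to 3, against 5.20, 9.35, 16.1, 12.9 and 10.3 CPM in tert+/- libraries 1 to 5 and 18.7, 11, 9.13, 11.6 and 5.13 CPM in wild type libraries 1 to 5. Library tert-/- 3, without testis transcripts, was among the low ones together with the 3 that had them. With library totals alone it was the lowest, at 4.24 CPM, and tert-/- 1 and tert+/- 1 had 9.27 and 10.5 CPM. The log2 fold change was -0.68 (95% interval -1.67 to 0.31) for tert-/- against wild type, -0.05 (-0.89 to 0.79) for tert+/- against wild type and -0.63 (-1.62 to 0.36) for tert-/- against tert+/-. Without tert-/- 2 the first and last were -1.24 and -1.19, and without tert-/- 1 they were -0.36 and -0.34. In wild type 1, the library with the lowest lyz and npsn, ptprc was at its highest.

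Identifiers that the symbol table names EPX and MPEG1 were read beside the 8 genes, without being taken for mpx or mpeg1.1. Whether any of them is mpx or mpeg1.1 under another name was not settled. EPX (ENSDARG00000019521) carries the symbol of eosinophil peroxidase in mammals, which does not show that it is an eosinophil gene in zebrafish. It had 1.88, 2.81 and 0.118 CPM in tert-/- libraries 1 to 3, against 0.232, 0.417, 7.05, 1.8 and 2.18 CPM in tert+/- libraries 1 to 5 and 0.173, 2.5, 0.261, 0.479 and 1.24 CPM in wild type libraries 1 to 5. Over the 10 libraries without testis transcripts its level ranked with npsn (Spearman's rho 0.95) and lyz (rho 0.82), given as a description. The MPEG1 identifier with the highest level (ENSDARG00000055290) had a mean CPM of 2.48 ± 0.723 for tert-/- fish (SD, n = 3), 2.67 ± 1.57 for tert+/- fish (SD, n = 5) and 2.45 ± 0.837 for wild type fish (SD, n = 5). Another MPEG1 identifier (ENSDARG00000078569) had 53 counts in tert+/- 3, 13 in tert+/- 2 and at most 2 in any other library. MPEG1 copies that resemble each other can share reads, so these values are uncertain.

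A total of 4 pairs of genes were compared over the 10 libraries without testis transcripts, on log2(CPM + 0.5), with two-sided permutation tests of 100000 draws adjusted over the 4 pairs. lyz and npsn had Pearson's r = 0.96 (permutation p = 1e-05, the smallest these draws can give, adjusted p = 4e-05) and Spearman's rho = 0.93 (permutation p = 0.00027, adjusted p = 0.00108). Without wild type 1 and tert-/- 3, the 2 libraries farthest from the median of lyz, r was 0.93. The macrophage genes csf1ra and marco had r = -0.52 (permutation p = 0.122, adjusted p = 0.163) and rho = -0.60 (permutation p = 0.0729, adjusted p = 0.0973), and r was -0.21 without wild type 1 and wild type 4. For MMP9 and mmp13a, r was 0.07 (permutation p = 0.83) and rho 0.15 (permutation p = 0.681). il1b and MMP9 had r = -0.59 (permutation p = 0.0754, adjusted p = 0.151) and rho = -0.79 (permutation p = 0.00857, adjusted p = 0.0171), with r = -0.64 without wild type 1 and tert+/- 3. The ranks of il1b rest in part on few reads. It had at most 9 counts in tert-/- 2, tert+/- 2, tert+/- 4, wild type 2 and wild type 3, and its highest count among these libraries was 51, in wild type 1. The libraries tert-/- 1 and tert+/- 1, left out here, had the highest il1b and MMP9 levels at once.

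**Figure D4:**
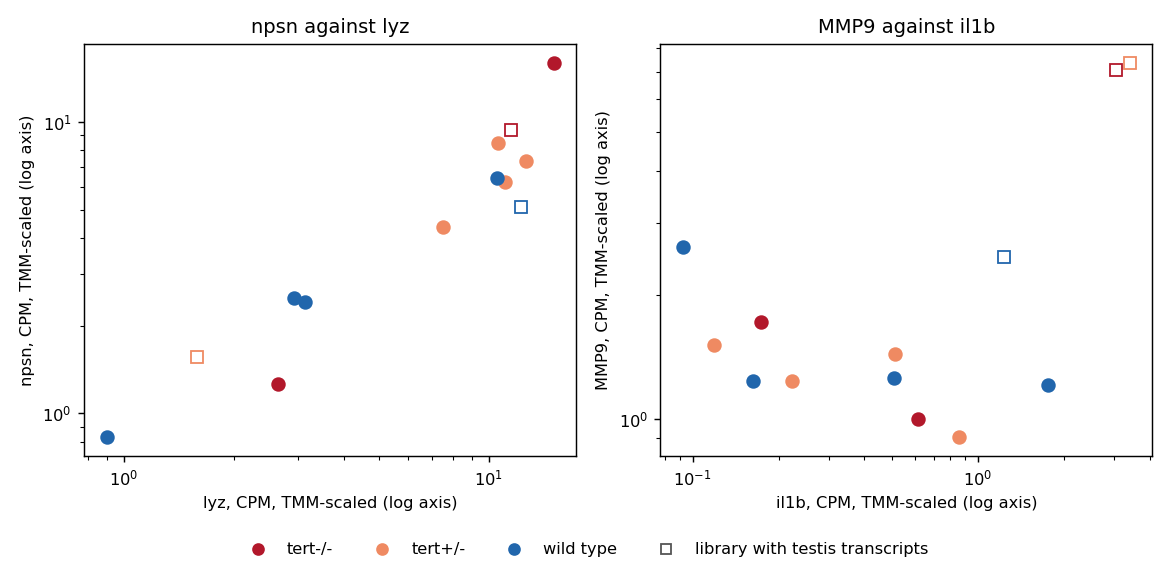
Left, npsn against lyz, and right, MMP9 against il1b, in CPM with TMM factors on log axes, 1 point per library coloured by genotype, with open squares for the 3 libraries with testis transcripts. On the left the points follow 1 line through all genotypes (r = 0.96 over the 10 filled points), and on the right the filled points fall (r = -0.59) while tert-/- 1 and tert+/- 1 stand at the top right.

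Genes with a pattern most like those of lyz and csf1ra were named by Spearman's rho over the same 10 libraries among 12465 genes with a mean of at least 1 CPM. For lyz they were LECT2, named for a chemotactic factor of leukocytes (ENSDARG00000033227, rho 0.95), npsn (0.93), uqcc4 (0.93), C18H11orf58 (0.89) and MYB (0.89), and 3 genes had a rho over 0.9. For csf1ra they included CLIP1 (0.98), TRIM23 (0.98), zgc:195001 (0.96) and tspan5a (0.96), and 38 genes had a rho over 0.9. With 10 libraries and this many genes such values are a description, and none of the genes named for csf1ra was in a list of macrophage genes.

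Other genes listed for the same cells and pathways were counted by list, and a listed gene need not be limited to those cells. Of 18 further neutrophil genes tested, 7 had a positive log2 fold change for tert-/- against wild type (median -0.04) and 13 for tert+/- against wild type (median 0.20). Of 27 further macrophage genes, 7 were positive for tert-/- against wild type (median -0.20) and 16 for tert+/- against wild type (median 0.05). Of 18 further leukocyte genes, 3 and 9 were positive (medians -0.20 and 0.00), and of 29 inflammation genes 15 and 13 (medians 0.03 and -0.02). Over all genes tested, 47.7% and 50.2% were positive, with medians of -0.03 and 0.00. For tert-/- against tert+/-, where 50.3% of all genes were positive, 5 of the 18 neutrophil genes were (median -0.11), 3 of the 27 macrophage genes (median -0.26), 3 of the 18 leukocyte genes (median -0.19) and 14 of the 29 inflammation genes (median -0.0016).

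These counts moved with the scaling and with the libraries used. With library totals alone, 16 of the 18 neutrophil genes, 20 of the 27 macrophage genes and 16 of the 18 leukocyte genes were positive for tert-/- against wild type, where 81.7% of all genes were. Leaving out those with testis transcripts, it was 10 of 18 neutrophil, 10 of 27 macrophage and 10 of 18 leukocyte genes (medians 0.028, -0.071 and 0.048), against 47.2% of all genes. Between tert-/- and tert+/- it was 2 of 18, 5 of 27 and 9 of 18 without those libraries (medians -0.32, -0.16 and 0.014), against 48.9% of all genes, and 11 of 18, 13 of 27 and 9 of 18 with library totals alone, against 71.6%. No gene of these lists was called in any comparison.

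Lists of other cell types were read in the same way. Between tert-/- and wild type, 0 of 8 B cell genes, 7 of 18 T and NK cell genes, 3 of 13 erythrocyte genes, 2 of 12 fibroblast genes and 1 of 17 skin genes were positive (medians -0.24, -0.17, -0.21, -0.26 and -0.76). So were 0 of 19 fast muscle, 9 of 13 xanthophore and pigment and 15 of 15 testis genes, against 47.7% of all genes. With library totals alone, 81.7% of all genes were positive. There it was 6 of 8 B cell, 18 of 18 T and NK cell and 10 of 13 erythrocyte genes. It was 6 of 12 fibroblast and 2 of 17 skin genes, 7 of 19 fast muscle genes, 11 of 13 pigment genes and 15 of 15 testis genes. In the 10 libraries without testis transcripts, 47.2% of all genes were positive. There it was 1 of 8 B cell, 6 of 17 T and NK cell and 3 of 13 erythrocyte genes. It was 4 of 12 fibroblast, 1 of 17 skin and 14 of 19 fast muscle genes, 3 of 9 pigment genes and 1 of 13 testis genes. The other comparisons are given over all 13 libraries. For tert+/- against wild type, 2 of 8 B cell, 6 of 18 T and NK cell and 4 of 13 erythrocyte genes were positive. So were 1 of 12 fibroblast, 15 of 17 skin, 1 of 19 fast muscle, 8 of 13 pigment and 9 of 15 testis genes. The skin median was 0.42, and 50.2% of all genes were positive. Between tert-/- and tert+/-, 3 of 8 B cell, 6 of 18 T and NK cell and 5 of 13 erythrocyte genes were positive. So were 7 of 12 fibroblast, 1 of 17 skin, 6 of 19 fast muscle, 9 of 13 pigment and 15 of 15 testis genes. The skin median was -1.32 there, and 50.3% of all genes were positive. Summed levels overlapped between genotypes in each list. B cell genes summed to 5.52 to 9.13 CPM in tert-/- libraries, against 6.62 to 10.1 CPM in wild type, and skin genes to 172 to 477 CPM in tert-/- libraries, against 232 to 954 CPM in wild type. No gene of these lists was at 0 in all 13 libraries, and their part in the values of the leukocyte genes was not tested.

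Among the listed genes, the lowest adjusted p in any comparison was 0.992. The macrophage and endothelial scavenger receptor gene stab1 averaged 4.39 ± 0.287 CPM (SD) in tert-/- fish, against 6.92 ± 1.82 CPM (SD) in wild type fish, a log2 fold change of -0.66 (SE 0.24, edgeR adjusted p = 0.992), which was -0.04 with library totals alone. A second CSF1 receptor gene, csf1rb, averaged 0.734 ± 0.270 CPM (SD) in tert-/- fish, against 1.67 ± 0.802 CPM (SD) in wild type fish, a log2 fold change of -1.19 (SE 0.54, edgeR adjusted p = 0.992), which was -0.70 with library totals alone. One ligand gene, csf1a, averaged 0.746 ± 0.151 CPM (SD) in tert-/- fish, against 1.99 ± 1.71 CPM (SD) in tert+/- fish, a log2 fold change of -1.42 (SE 0.60, edgeR adjusted p = 1), which was -0.79 without tert+/- 2. In that comparison csf1b and il34, of the same list, were at -0.64 (SE 0.70) and 0.0038 (SE 0.43). Of 14 ligand and receptor genes of myeloid growth tested, 4 were positive there. Against wild type, 2 of the 14 were positive for tert-/- and 5 for tert+/-. The cathepsin gene ctss2.1 averaged 2.71 ± 1.90 CPM (SD) in tert+/- fish, against 1.34 ± 0.345 CPM (SD) in wild type fish, a log2 fold change of 1.01 (SE 0.45, edgeR adjusted p = 1), which was 0.58 without tert+/- 3. nfkb1, which encodes a subunit of the inflammatory transcription factor NF-kB, averaged 3.16 ± 1.83 CPM (SD) in tert-/- fish, against 1.77 ± 0.334 CPM (SD) in tert+/- fish, a log2 fold change of 0.83 (SE 0.36, edgeR adjusted p = 1) that was 0.23 without the 3 libraries with testis transcripts, and 0.27 without tert-/- 1 alone. Further genes named by the same rule were the neutrophil list's s100a10b, cfl1l and VAMP8, the leukocyte list's arhgdig, COTL1 and INPP5D, nfkb2 and RELA of inflammation, the chemokine gene cxcl12b, and TIMP4, mmp17b and RECK of the matrix protease list, and all of them had an unadjusted p above 0.05 in each comparison.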

How the data were processed

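The 13 muscle libraries were prepared with a TruSeq RNA kit (Illumina). The submitters' notes name STAR 2.4.1d for alignment to GRCz10, featureCounts 1.4.6-p4 for counting and bcl2fastq 1.8.4. The paper's methods name kallisto with an Ensembl annotation instead, and which route made the deposited table was not settled, although its values are whole numbers. Not given in the sources used here are the strand setting, the annotation of the featureCounts step and how multi-mapping reads were treated. The authors deposited whole-number read counts per gene, not normalized. The deposited RPKM values divide by the 13 library totals in turn down the table, so that 7.69% of values used their own library's total. They served only for gene lengths.

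Counts were tested with edgeR 4.0.16 (R 4.3.3, quasi-likelihood F test, TMM factors, default filter, 13 libraries in 1 fit, Benjamini-Hochberg over 19407 genes, threshold 0.05). Intervals use the degrees of freedom of that test. DESeq2 1.42.0 and limma 3.58.1 (voom with quality weights) were alternatives, with other scalings, filters and samples. Permutation tests used numpy 2.4.6. edgeR, DESeq2 and voom were also run on simulated counts. These had less spread between samples than the real libraries, so that run does not show what could be detected here.

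Genes named were the 10 listed, tert, up to 3 genes per list by smallest p with a mean of at least 1 CPM in 1 genotype, and the 5 genes most like 2 anchors. One gene that this rule names is not reported here. The anchors were to be mpx and mpeg1.1. As neither was matched, lyz and csf1ra replaced them after the data were seen, and 4 of 8 pairs could not be compared. The members and lists were chosen with earlier results of these data known. Leaving out the 3 libraries with testis transcripts (50 CPM or more), with edgeR, with library totals alone and with DESeq2, was chosen after seeing the data. No pair of libraries held identical values.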

Additional observations from a re-analysis of the deposited data

Results flagged for a closer look

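Of 22 groups of 5 libraries, 4 held a library that stood far from the rest by Dixon's test at the 95% level. Chance gives about 1 in 20 for independent groups of normal values. CPM was not put on a log scale, and the groups share libraries and genes, so the 4 cannot be set against that rate. All 4 were tert+/- groups. In library tert+/- 1, MMP9 was at 7.35 CPM, with the nearest other tert+/- library at 1.52 CPM. In the same library il1b was at 3.41 CPM, with the nearest at 0.860 CPM. The sum of MMP9 and mmp13a there, 7.42 CPM against 2.1 CPM in the nearest, repeats the MMP9 value. This library also held testis transcripts (288 CPM), and their part in these levels was not tested. In library tert+/- 4, mmp13a was at 0.865 CPM, with the nearest other at 0.268 CPM. These are 35 and 9 counts. Library tert+/- 4 had 8.55 CPM of testis transcripts. The 3 tert-/- libraries were too few for this test.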

How the results depend on the processing

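No paired analysis was possible because the replicate numbers were given in the order of the records and are only names. No member was called by any alternative, the lowest adjusted p over all named genes and settings being 0.287. The 0 calls of edgeR became 1 and 1 with DESeq2 for tert-/- against wild type and tert-/- against tert+/-. Without the 3 libraries with testis transcripts, DESeq2 called 2, 38 and 1 genes for tert-/- against wild type, tert+/- against wild type and tert-/- against tert+/-, and the cause was not tested. Other alternatives, and each fit without 1 library, called 0. Library totals alone made 81.7%, 76.8% and 71.6% of all genes positive in the same order of comparisons. mmp13a was not tested without tert+/- 4, with 1 CPM in 3 samples, or, against wild type, in the fit of the compared genotypes only.

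For tert-/- against wild type, marco turned to 0.038 with DESeq2, 0.27 with voom, 0.040 with RLE factors and 0.35 with library totals alone, and RECK to 0.11 with library totals alone. MMP9 turned to -0.025 with voom. Without the 3 libraries, MMP9, il1b and marco were -0.18, -0.60 and 0.15 with edgeR, -0.20, -0.68 and 0.11 with library totals alone, and -0.18, -0.59 and 0.15 with DESeq2. For tert+/- against wild type, voom gave -0.27 for MMP9 and 0.18 for ptprc, and library totals alone 0.14 for ptprc. Without the 3 libraries, MMP9 and il1b were -0.30 and -0.52 with edgeR, -0.27 and -0.51 with library totals alone, and -0.29 and -0.50 with DESeq2, and TERT was -0.0011 with edgeR. For tert-/- against tert+/-, voom gave -0.38 for lyz, -0.048 for npsn, -0.55 for mmp13a, -0.012 for il1b and 0.027 for marco. Without the 3 libraries, lyz, mmp13a and il1b were -0.22, -0.12 and -0.074 with edgeR, -0.18, -0.098 and -0.17 with library totals alone, and -0.22, -0.13 and -0.092 with DESeq2.

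Leaving out 1 library at a time turned signs too. For tert-/- against wild type, MMP9 ran from -0.33 to 1.3, il1b from -0.84 to 1.45, marco from -0.22 to 0.32, mmp17b from -0.80 to 0.012 and RECK from -0.54 to 0.015. For tert+/- against wild type, MMP9 ran from -0.47 to 0.75, il1b from -0.82 to 1.12, marco from -0.19 to 0.44, ptprc from -0.24 to 0.22 and TERT from -0.069 to 0.21. For tert-/- against tert+/-, MMP9 ran from -0.90 to 1.4, il1b from -1.40 to 1.66, marco from -0.38 to 0.16, lyz from -0.32 to 0.60, npsn from -0.091 to 1.17, mmp13a from -0.39 to 0.76 and csf1ra from -0.23 to 0.46. Among pairs, r of lyz and npsn stayed within 0.95 and 0.97, MMP9 and mmp13a ran from -0.075 to 0.38, csf1ra and marco from -0.81 (adjusted permutation p = 0.0161 without tert+/- 2) to -0.36, and il1b and MMP9 from -0.73 (adjusted permutation p = 0.0319 without wild type 1) to -0.52. Depth limits mmp13a most, with 1 to 35 counts per library, while il1b had 3 to 204 and csf1ra 5 to 101.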
